A study of Homo sapiens and Mus musculus with 74 samples.

Results

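The genes described here are 9 components of the complement system and the acute-phase response that were measured in kidney and brain of mice lacking the ribosomal protein gene Rpl41. They are C1qa, C1qb, C1qc, C4b, C3, Hc (the mouse gene for complement C5), Serping1, Cfi and Cp. They were taken by name from the mouse count table, each as its transcript coding for the longest protein in GENCODE M21, and are 9 of the 56404 genes that the table lists. The genes were chosen by name with the KO against WT fold changes of RNA, footprints and translation in these libraries in view, so those values are given below as a description without p-values, while the comparisons of tissues and of assays within WT mice were tested.

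The study compared Rpl41 KO (Rpl41-/-) mice, in which CRISPR-Cas9 electroporation of C57BL/6J zygotes removed the whole Rpl41 coding sequence from the germline, with Rpl41+/+ (WT) mice. Males of 10 weeks were used, with no treatment named, and every cell type of a KO mouse, liver included, carries the deletion. RNA-seq measured transcript levels, Ribo-seq the mRNA fragments protected by translating ribosomes (footprints), and disome-seq, in kidney alone, the longer fragments protected by 2 adjoining ribosomes. Each genotype, tissue and assay had 3 libraries, and nothing in the labels says which animal gave which library, so p-values refer to the spread between these libraries.

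Complement is a cascade of plasma proteins that tags microbes and cell debris. C1q, a complex of the C1qa, C1qb and C1qc chains made mostly by macrophages and microglia, recognises the target, cleavage of C4 and C3 deposits the tag, and C5 starts the lytic complex, while Serping1 (C1 inhibitor) and Cfi (complement factor I, a protease that inactivates C3b and C4b) hold the cascade back. C3, C4, C5, factor I and ceruloplasmin (Cp, a copper ferroxidase that lets iron be exported) are plasma proteins made chiefly by hepatocytes, with smaller local sources, and most of them increase in the acute-phase response.

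In the GRCm38 annotation the C1q genes lie side by side on the minus strand of chromosome 4, C1qb from 136880129 to 136886187, C1qc from 136889804 to 136893065 and C1qa from 136895917 to 136898803. C4b (17:34728380-34743882) and C3 (17:57203970-57228136) are on the minus strand of chromosome 17, Hc (2:34983331-35061438) and Serping1 (2:84765387-84775444) on the minus strand of chromosome 2, and Cfi (3:129835884-129875332) and Cp (3:19957054-20009145) on the plus strand of chromosome 3. The proteins fall into 2 size classes that the choice of genes did not use. The C1q chains have 245, 253 and 246 amino acids, Serping1 504 and Cfi 603, whereas Cp has 1086, C3 1663, Hc 1680 and C4b 1738.

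Reads were counted for every place they fit, so genes with a near copy can share them. Each coding sequence was therefore cut into all its 28-base words, about the length of a footprint, and these were looked up in the transcripts of all other genes. None of the words of Hc, C3, Cfi, Cp, C1qa, C1qb, C1qc or Serping1 occurred elsewhere. Of the 5187 words of C4b, 2687 (51.8%) also occurred in C4a, its neighbour on chromosome 17, which GENCODE M21 lists without a coding sequence and whose transcript is identical to the C4b coding sequence at 96.1% of aligned bases. The pair of windows below, in exon 21 of each gene, is where the genes differ most within 30 bases, with the 9 differing bases in capitals (C4b at chr17:34735436-34735465 and C4a at chr17:34816092-34816121, both on the minus strand), and shows the kind of stretch by which a footprint can be assigned.
C4b: aGGtggtggctCGagggGTtttTgattTaG
C4a: aATtggtggctAAagggACtttGgattCaA
The next window, in exon 1 (C4b at chr17:34743773-34743802), is the same in both genes and shows the opposite case, in which a read fits either gene.
C4b and C4a: tgggtgttcagcttctgtgcctcatccctg
The C4a level was 25.5% of the C4b level in WT kidney RNA and 22.9% in WT brain RNA, but 60.4% and 57.4% in the footprints of the same tissues. C4b values, above all footprints, are therefore uncertain to the extent that C4a reads enter them.

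Library totals ranged from 9498663 to 123745890 counts in RNA-seq and Ribo-seq and from 1187636 to 3018963 in disome-seq. Levels are given in CPM, counts scaled to a common library size with TMM factors within tissue and assay. The tests of kidney against brain scaled both tissues together instead. Their log2 fold changes therefore need not equal the ratio of the CPM shown. Rpl41 matched the labels in all libraries, with 3695 to 7502 reads in WT kidney RNA and 3 to 8 in KO, and 8981 to 12199 in WT brain RNA and 6 to 12 in KO. Tissue markers were as labelled, the 6 proximal tubule markers summing to 3098 to 3794 CPM in kidney RNA and 5.29 to 7.71 CPM in brain RNA. KO kidney RNA-seq libraries 2 and 3 stood apart from the other 4 kidney RNA-seq libraries, since 1.76% and 1.67% of their counts were mitochondrial rRNA, where the others had 0.436% to 0.962%, and they had 83287 and 86071 detected transcripts against 91222 to 93091. KO brain RNA-seq libraries 2 and 3 had 106993 and 107005 detected transcripts against 108428 to 110056 in the other brain RNA-seq libraries. Their TMM factors were 0.924 and 0.936 against 0.988 to 1.10. WT Ribo-seq library 1 of each tissue carried the highest footprints of 7 pancreas markers, 135 CPM in kidney and 47.4 CPM in brain, against at most 21.9 and 2.59 CPM in the other libraries of the tissue.

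In WT mice the C1q chains were the most abundant members in brain RNA per kilobase of transcript, at 11.3 CPM per kb for C1qb, 10.8 for C1qa and 8.83 for C1qc, ahead of Serping1 at 1.34, C4b at 1.24, Cp at 0.614, C3 at 0.0641, Hc at 0.0447 and Cfi at 0.0137. In kidney RNA Serping1 had the highest mean with 9.51 CPM per kb, followed by C1qb at 6.11, C1qa at 5.81, C1qc at 4.31, C3 at 1.31, Cp at 1.30, Cfi at 0.564 and C4b at 0.302, while Hc had 0, 2 and 0 reads. Several neighbours overlapped library by library per kilobase and could not be separated, in kidney Serping1 and C1qb, the C1q chains among themselves, and C3 and Cp, and in brain C1qb and C1qa, Serping1 and C4b, and C3 and Hc. The plot of levels in every library shows these orders.

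**Figure D1:**
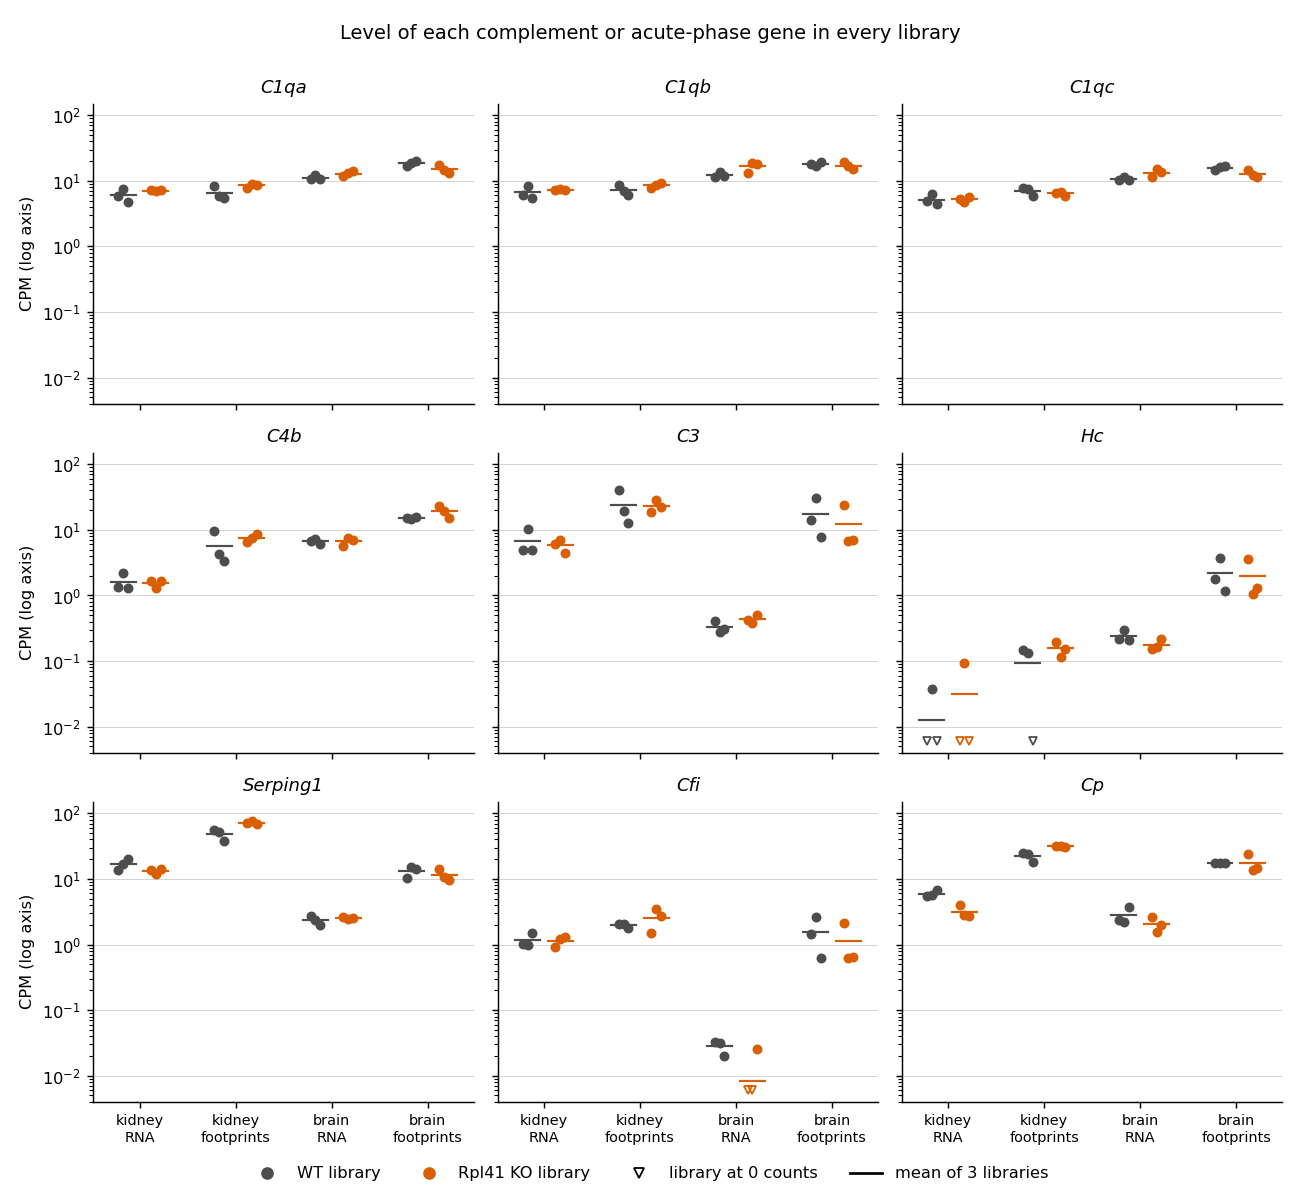
CPM of each gene in every kidney and brain library on a log axis, WT in grey and Rpl41 KO in orange, bars at the mean of 3 libraries and open triangles for libraries at 0 counts. C3 and Cfi footprints sit near the same level in both tissues although their RNA is far lower in brain (C3 at 6.72 CPM in WT kidney and 0.329 CPM in WT brain), and Hc is near 0 in kidney.

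All 9 genes differed between kidney and brain RNA of WT mice, 4 higher in kidney (28.3% of the 88731 transcripts tested were) and 5 lower (35.8%), by the quasi-likelihood test of edgeR, with p-values adjusted over all transcripts after Benjamini and Hochberg. All 9 were also apart library by library, 4 above (25.1% of transcripts) and 5 below (46.5%). These overlaps were read from CPM scaled within each tissue, not from the scale of the test. Among the recognition chains, C1qa had 5.91, 7.42 and 4.80 CPM in kidney and 10.8, 12.2 and 10.7 CPM in brain, a log2 fold change of -0.60 (SE 0.21, adjusted p = 0.0276). C1qb at -0.59 (adjusted p = 0.02996) and C1qc at -0.74 (adjusted p = 0.00740) lay on the same side, but the C1qa and C1qb calls were lost without WT brain library 2 (adjusted p = 0.0703 and 0.0809), WT kidney library 1 (0.0830 and 0.110) or WT kidney library 3 (0.0527 and 0.0566).

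Of the proteins that C1q leads to, C4b was lower in kidney RNA (1.62 ± 0.50 CPM against 6.66 ± 0.59, SD, n = 3 libraries), a log2 fold change of -1.74 (SE 0.26, adjusted p = 0.000208 from edgeR). C3 was higher, with 4.97, 10.3 and 4.88 CPM in kidney and 0.408, 0.276 and 0.305 CPM in brain. Its log2 fold change was 4.65 (SE 0.39, adjusted p = 2.8e-06 from edgeR). Hc was at the floor of 3 counts in kidney and had 20, 28 and 21 reads in brain. In CPM scaled within each tissue, its brain level was at least 4.13-fold higher (adjusted p = 0.00312 from edgeR, which scaled both tissues together).

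Both regulators and Cp were higher in kidney RNA. Serping1 had 13.6, 17.1 and 19.8 CPM in kidney against 2.74, 2.38 and 2.01 in brain, a log2 fold change of 3.11 (SE 0.21, adjusted p = 5.1e-07 from edgeR). Cfi had 52, 52 and 74 reads in kidney and 3, 3 and 2 in brain, which is at the floor. In CPM scaled within each tissue, its kidney level was at least 36.9-fold higher (adjusted p = 3.2e-06 from edgeR, which scaled both tissues together). Cp had 5.42, 5.68 and 6.70 CPM in kidney against 2.39, 2.23 and 3.79 in brain, a log2 fold change of 1.38 (SE 0.24, adjusted p = 0.000537 from edgeR).

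In footprints of the same WT tissues 7 of the 9 genes differed by the same edgeR test, 2 higher in kidney (35.0% of 82957 transcripts were) and 5 lower (35.8%). In CPM scaled within each tissue, the same 2 and 5 did not overlap between tissues (33.6% and 40.0% of transcripts). Serping1 (2.00 on the log2 scale, SE 0.18, adjusted p = 2.0e-07) and Cp (0.46, SE 0.14, adjusted p = 0.00835) were higher in kidney, the latter not without WT kidney Ribo-seq library 1 (adjusted p = 0.0573). C1qa at -1.36, C1qb at -1.20, C1qc at -1.06, C4b at -1.21 and Hc at -4.04 were lower. C3 and Cfi, which had the largest kidney excess in RNA, had no called difference in footprints, at 0.66 (SE 0.42, adjusted p = 0.174) and 0.64 (SE 0.36, adjusted p = 0.1297). Both calls were gained without WT brain Ribo-seq library 2 (1.25 with adjusted p = 0.0108 and 1.04 with adjusted p = 0.0143), and that of C3 also without WT kidney Ribo-seq library 3 (0.98, adjusted p = 0.0486) or without a filter on low counts (0.68, adjusted p = 0.00627).

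The level of footprints over RNA therefore differed between the tissues. In WT brain the ratio of mean footprint CPM to mean RNA CPM was 53.8 for C3, from 14.1, 31.1 and 7.86 CPM of footprints and 0.329 CPM of RNA, and 9.10 for Hc. In kidney the C3 ratio was 3.58. Over all genes with at least 1 CPM the median ratio was 0.939 in brain (5th to 95th percentile 0.255 to 3.84, 14129 genes) and 0.900 in kidney (0.273 to 3.08, 11840 genes). The C1q chains stayed near those medians, with ratios of 1.64, 1.47 and 1.5 in WT brain and 1.08, 1.08 and 1.35 in WT kidney. C4b at 3.55 in kidney and 2.27 in brain, Serping1 at 2.90 and 5.59, and Cp at 3.77 and 6.29 lay between the C1q chains and brain C3.

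**Figure D2:**
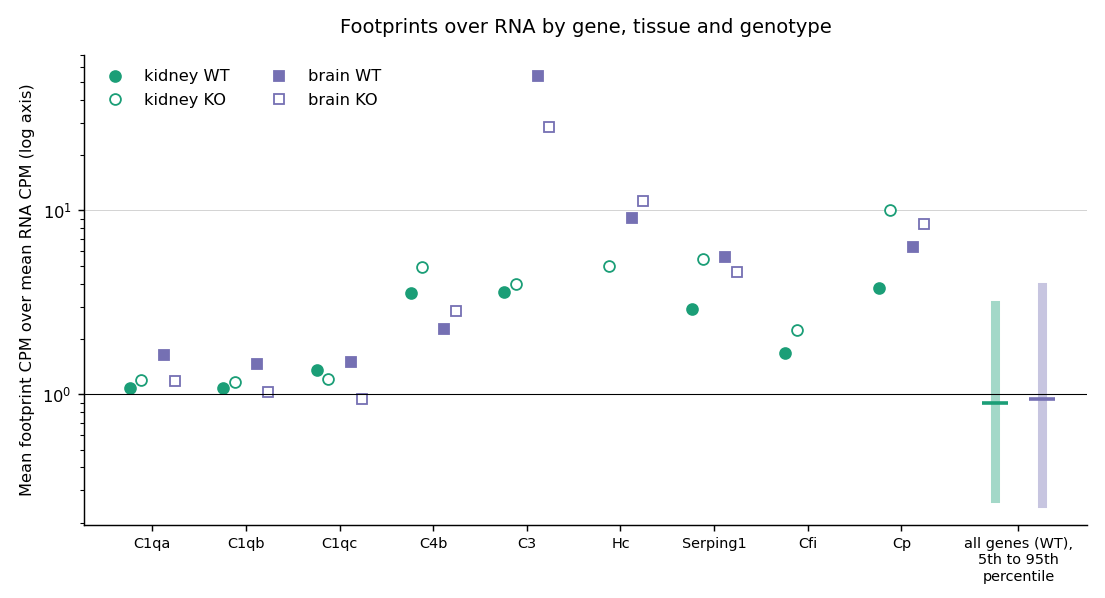
Mean footprint CPM over mean RNA CPM for each gene on a log axis, kidney as circles and brain as squares, WT filled and KO open, with the 5th to 95th percentile and median of all genes in WT at the right. Groups whose RNA is at or under 3 counts in each library (Hc in WT kidney, Cfi in brain) are not drawn, and C3 in brain stands highest at 53.8 in WT and 28.6 in KO. Hc in KO kidney is drawn but rests on 0, 4 and 0 RNA reads.

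TE (translation efficiency, the change of footprints beyond that of RNA) was lower in WT kidney than in WT brain for 4 of the 9 genes, C3, Cfi, Cp and Serping1, by the interaction term of assay and tissue in edgeR, whereas 8.09% of 96684 transcripts were called in that direction. The log2 difference was -4.01 for C3 (SE 0.69, adjusted p = 0.000567), -1.10 for Serping1 (SE 0.28, adjusted p = 0.0127) and -0.90 for Cp (SE 0.27, adjusted p = 0.0279). Cfi was called as well (adjusted p = 3.5e-05), but its brain RNA was at the floor and no size is given. The Cp call was lost without brain Ribo-seq library 1 or 3, brain RNA-seq library 1 or 2, or kidney Ribo-seq library 2 or 3 (adjusted p of 0.0557, 0.0686, 0.0799, 0.0824, 0.0602 and 0.0888). It was also lost with library totals in place of TMM (adjusted p = 0.129) and with WT and KO libraries in 1 fit (0.0522). C1qa (-0.76, adjusted p = 0.0778) gained its call with DESeq2 (0.0469), with 1 transcript per gene (0.0479) and with WT and KO libraries in 1 fit (0.0466). It also gained it without WT kidney Ribo-seq library 1 (adjusted p = 0.0429) or WT kidney RNA-seq library 3 (0.0136), the latter also adding C1qb (0.0430).

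The brain Ribo-seq libraries also held footprints of genes that brain RNA hardly contained. All 8 hepatocyte markers (Alb, Apoa1, Apoa2, Apoc3, Serpina1c, Fgb, Cyp3a11 and Tat) were detected in brain footprints, with summed levels of 256.5, 432.4 and 146.4 CPM in WT and 286.5, 103.5 and 104.9 CPM in KO, against 1.58 to 2.19 CPM in brain RNA. Alb, the plasma albumin gene, made up 140, 248 and 75.9 CPM of this in WT and 154, 60.9 and 55.1 CPM in KO. C3 footprints put the 6 brain libraries in the same order as the hepatocyte sum, and spanned 4.66-fold between the lowest and the highest library, against 4.18-fold for the hepatocyte sum, 4.21-fold for Cfi and 3.46-fold for Hc. Taken per 100 Alb footprints, C3 ranged from 10.1 to 15.3, Cfi from 0.827 to 1.36 and Hc from 1.29 to 2.38, so that each of the 3 genes varied less against Alb than against library size.

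The other members varied less in CPM across the same 6 libraries. C1qa, C1qb, C1qc, C4b, Cp and Serping1 spanned 1.53-fold, 1.30-fold, 1.52-fold, 1.56-fold, 1.77-fold and 1.59-fold in CPM, but 3.02-fold (Serping1) to 5.46-fold (C4b) when taken per 100 Alb footprints. Serping1 was nonetheless highest in WT library 2 (15.35 CPM) and KO library 1 (14.39 CPM), where the hepatocyte sums were highest. Cp (23.89 CPM) and C4b (22.75 CPM) were highest in KO library 1, whereas C1qa, C1qb and C1qc were highest in WT library 3 (20.15, 19.43 and 17.1 CPM). The part of the hepatocyte footprints in the brain values of any member, and in the tissue differences above, was not tested.

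**Figure D3:**
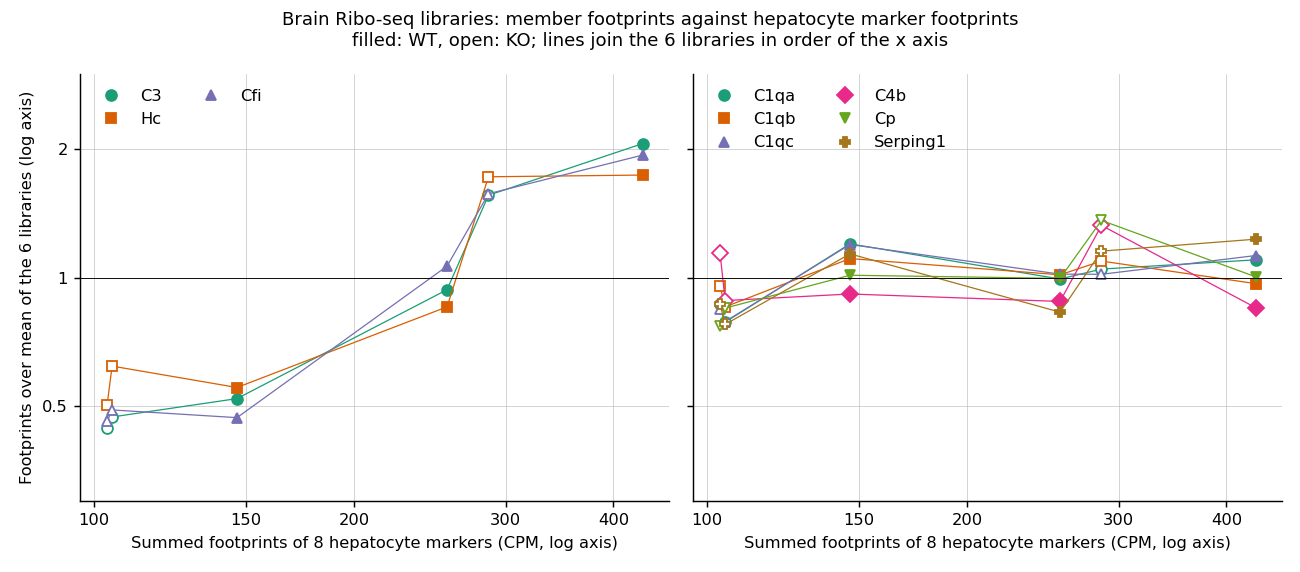
Footprints of each gene in the 6 brain Ribo-seq libraries, divided by the mean of the 6, against the summed footprints of 8 hepatocyte markers in the same library, both on log axes, WT filled and KO open. C3 (left) climbs at every step of the marker sum from 103.5 to 432.4 CPM. Hc and Cfi (left) climb too, except for a small fall from KO library 3 to WT library 3 (1.31 to 1.17 and 0.655 to 0.628 CPM). The other 6 genes (right) stay within 1.77-fold from lowest to highest library.

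In kidney RNA of KO against WT mice none of the 8 genes that could be tested was called by edgeR (0.00992% of 70545 transcripts were), while 1 (Cp) was under an unadjusted threshold of 0.05, as were 16.8% of all transcripts, and DESeq2 called none. Hc could not be tested in kidney. Nothing is read from this or any later count of members called between KO and WT, since the genes were chosen on the same contrasts. The largest difference was that of Cp, with 5.42, 5.68 and 6.70 CPM in WT and 3.97, 2.82 and 2.68 CPM in KO, a log2 fold change of -0.91 (SE 0.23). The groups did not overlap, as in 10.1% of transcripts in that direction, and the 2 lowest values belonged to KO libraries 2 and 3, the libraries that stood apart. Without KO library 1 Cp became the only member called, at -1.11.

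Serping1 RNA had 13.6, 17.1 and 19.8 CPM in WT and 13.7, 12.0 and 14.3 CPM in KO kidney, with 1 WT library inside the KO range (-0.34 on the log2 scale, SE 0.18). The C1q chains differed by 0.23 (C1qa, SE 0.20), 0.15 (C1qb, SE 0.21) and 0.03 (C1qc, SE 0.21), C4b by -0.08 (SE 0.33), C3 by -0.20 (SE 0.33) and Cfi by -0.03 (SE 0.35), and all of these overlapped between genotypes. With 1 library left out C3 ranged from -0.38 to 0.26, C4b from -0.22 to 0.20, Cfi from -0.13 to 0.19 and C1qc from -0.08 to 0.19. C3 and C4b turned sign without WT library 2, C4b also without KO library 2, Cfi without WT library 3 or KO library 1, and C1qc without WT library 1 or 3 or KO library 3. In whole tissue, fewer cells of a type and less RNA per cell cannot be told apart.

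In kidney footprints the genotypes did not overlap in Cp and Serping1 and overlapped in the other 6 members tested. Cp and Serping1 were also the 2 of 8 members past the edgeR threshold, which is a description and no test of them (7.76% of 75266 transcripts were called in either direction, 4.75% higher and 3.01% lower). Cp footprints were 25.0, 23.7 and 18.4 CPM in WT and 32.0, 31.8 and 31.0 CPM in KO, a log2 fold change of 0.49 (SE 0.12). Serping1 footprints were 55.5, 52.4 and 38.4 CPM in WT and 72.2, 76.0 and 68.5 CPM in KO, a log2 fold change of 0.56 (SE 0.14). In both genes each KO library lay above each WT library, as in 15.5% of transcripts in that direction, and WT library 3 was lowest. The Cp values were thus lower in RNA and higher in footprints in KO than in WT kidney, and those of Serping1 higher in footprints and overlapping in RNA.

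The remaining genes overlapped between genotypes in kidney footprints, with log2 fold changes of 0.37 for C1qa (SE 0.15), 0.24 for C1qb (SE 0.14), -0.15 for C1qc (SE 0.13), 0.32 for C4b (SE 0.28), -0.05 for C3 (SE 0.29) and 0.51 for Cfi (SE 0.24). C3 varied most among WT libraries, at 39.9, 19.4 and 12.9 CPM, against 19.0, 28.6 and 22.7 in KO. WT library 1, the kidney Ribo-seq library with the most pancreas marker footprints (135 CPM), moved C4b, C3 and C1qa most. Without it C4b stood at 1.00, C3 at 0.55 and C1qa at 0.60, and C4b and C1qa passed the threshold beside Cp and Serping1. Without WT library 3 C4b stood at 0.07 and C3 at -0.34, and without KO library 2 Cfi stood at 0.23. Neither Cp nor Serping1 passed with library totals in place of TMM or without WT library 2, KO library 2 or KO library 3, and Serping1 alone passed without KO library 1.

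Levels of many cell type markers were also higher in KO kidney footprints. Of 13 marker lists, the summed level of 8 lay in all KO libraries above all WT libraries, and 1 lay below, against 1 and 1 in kidney RNA. Of single transcripts 15.5% lay above in kidney footprints. The 8 included lists named for brain cell types, astrocyte (206.3 to 224.0 CPM in WT and 278.5 to 310.6 in KO) and choroid plexus (164.0 to 174.1 and 177.3 to 212.1). The 16 macrophage and microglia markers, all detected, summed to 171 to 173 CPM in WT and 203 to 214 CPM in KO, the 6 proximal tubule markers to 3659 to 4278 and 4995 to 5735 CPM, and the 8 hepatocyte markers to 63.2 to 84.4 and 112 to 122 CPM. Within the hepatocyte list Serpina1c went from a mean of 60.8 to 106 CPM, while Alb (4.66 and 3.88 CPM) and Fgb (2.36 and 0.593 CPM) had lower means in KO. The lower KO mean of Alb rested on WT library 1, with 8.766, 2.285 and 2.938 CPM in WT and 3.753, 3.452 and 4.419 CPM in KO. Of 5 hepatocyte markers tested 2 lay above 0, with a median of -0.38 on the log2 scale. Of the macrophage and microglia markers 10 of 14 tested lay above 0 (median 0.24), and of the proximal tubule markers 6 of 6 (0.33). Of the astrocyte markers 5 of 5 tested lay above 0 (0.42), but of the choroid plexus markers 3 of 5, with a median of 0.03. The 6 endothelial markers summed to 110.9 to 159.5 and 170.9 to 190.0 CPM, and the 7 pancreas markers were lower, at 11.6 to 135 CPM in WT and 4.35 to 7.81 CPM in KO. In kidney RNA the macrophage markers overlapped (104 to 123 and 117 to 121 CPM), as did the hepatocyte markers (7.93 to 12.4 and 10.0 to 15.2 CPM, with Tat at 0). Their part in the Cp and Serping1 values was not tested.

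Kidney TE was higher in KO by 1.40 on the log2 scale for Cp (SE 0.24) and by 0.91 for Serping1 (SE 0.24), and by -0.16 to 0.47 for the other 6 genes. Footprints over RNA went from 3.77 in WT to 10.0 in KO for Cp and from 2.90 to 5.43 for Serping1. None of the 8 was called by edgeR, as none of 89685 transcripts was (0.0%), with 2 members and 19.4% of transcripts under an unadjusted 0.05. DESeq2 called these 2 members and 4608 transcripts. Without KO kidney RNA-seq library 1 both were called as well, and without WT kidney RNA-seq library 2 Cp alone. Leaving out KO library 1 keeps only KO RNA-seq libraries 2 and 3, which stood apart with 1.76% and 1.67% mitochondrial rRNA. Their part in the TE values was not tested.

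**Figure D4:**
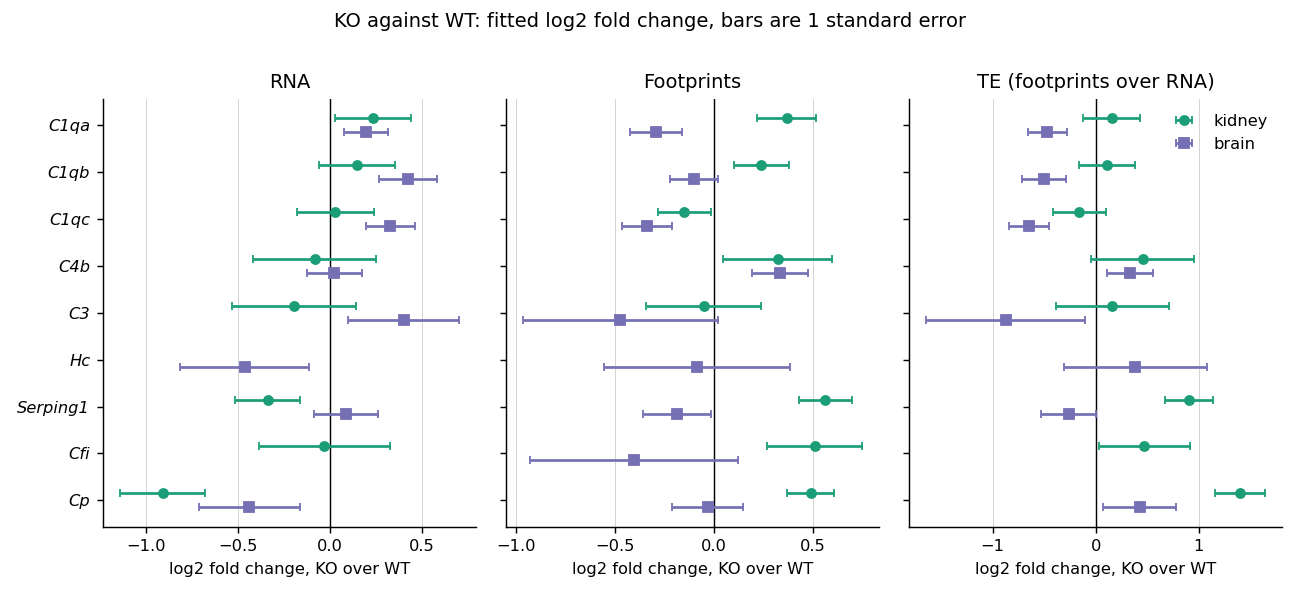
Fitted log2 fold change of KO over WT for each gene in RNA, footprints and TE, kidney as circles and brain as squares, with bars of 1 standard error. Cp in kidney lies at -0.91 in RNA, 0.49 in footprints and 1.40 in TE, the C1q chains in brain lie right of 0 in RNA and left of 0 in footprints, and Hc in kidney and Cfi in brain RNA and TE are not drawn, having too few counts.

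In brain none of the members was called in KO against WT, 0 of 8 in RNA (0.0134% of 89237 transcripts), 0 of 9 in footprints (0.0345% of 81112) and 0 of 9 in TE (0.0% of 98861). DESeq2 called none either, and 2, 3 and 3 members were under an unadjusted 0.05, against 3.46%, 12.6% and 4.85% of transcripts. The C1q chains had opposite signs in the assays. C1qc RNA was 10.4, 11.3 and 10.2 CPM in WT and 11.4, 14.9 and 13.7 CPM in KO, a log2 fold change of 0.33 (SE 0.13), and its footprints were 14.6, 16.1 and 17.1 CPM in WT and 14.6, 12.1 and 11.3 CPM in KO (-0.34, SE 0.13). The genotypes were apart in RNA, as in 5.08% of transcripts in that direction, and apart by a narrow margin in footprints, where 8.7% were.

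C1qb had log2 fold changes of 0.42 in RNA (SE 0.16) and -0.10 in footprints (SE 0.12), and C1qa of 0.19 (SE 0.12) and -0.29 (SE 0.13), with overlapping genotypes. In TE the 3 chains stood at -0.47 (C1qa, SE 0.19), -0.50 (C1qb, SE 0.21) and -0.65 (C1qc, SE 0.20). The 16 macrophage and microglia markers, none at 0, summed to 114.5 to 120.9 CPM in WT brain RNA and 131.4 to 135.7 CPM in KO, without overlap, and to 182.0 to 243.6 and 207.9 to 234.3 CPM in footprints, with overlap. The same held in brain RNA for the 7 astrocyte markers (633.8 to 717.6 and 720.6 to 887.7 CPM) and the 8 choroid plexus markers (294.0 to 352.3 and 354.9 to 429.4 CPM), so that 3 of 13 lists lay above WT and none below. KO brain RNA-seq libraries 2 and 3, those with the fewest detected transcripts, held the highest RNA values of each C1q chain and the highest sums of these 3 lists. C1qb RNA was 13.1 CPM in KO library 1 against 18.6 and 18.0 CPM in KO libraries 2 and 3. The part of these lists and of these libraries in the C1q values was not tested.

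C4b in brain had 6.79, 7.18 and 6.02 CPM of RNA in WT and 5.72, 7.59 and 7.04 CPM in KO (0.02 on the log2 scale, SE 0.15), and 15.1, 14.6 and 15.7 CPM of footprints in WT against 22.75, 19.56 and 15.16 CPM in KO (0.33, SE 0.14), where 1 KO library lay within the WT range. C4a, with which it shares words, stood at 0.37 in footprints (SE 0.17) and -0.22 in RNA (SE 0.19). C3 had -0.47 in brain footprints (SE 0.49) with 0.40 in RNA (SE 0.30), and Hc -0.08 (SE 0.47) with -0.46 (SE 0.35), while Cfi stood at -0.40 in footprints. The footprints of C3, Hc and Cfi were highest in WT library 2 and KO library 1, as were the hepatocyte markers. Without WT library 2 the footprint differences of C3, Hc and Cfi were 0.14, 0.35 and 0.04, and without KO library 1 they were -1.27, -0.76 and -1.13. The sign of C3 and Cfi thus rested on WT library 2, and that of Hc also turned without KO library 2 (0.28) or KO library 3 (0.12).

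Serping1 in brain differed by 0.09 in RNA (SE 0.17) and -0.19 in footprints (SE 0.17). Cp had 2.39, 2.23 and 3.79 CPM of RNA in WT and 2.63, 1.54 and 2.01 CPM in KO (-0.44, SE 0.27), and 17.5, 17.6 and 17.8 CPM of footprints in WT against 23.9, 13.5 and 14.9 CPM in KO (-0.03, SE 0.18). The highest Cp footprints were in KO library 1, which also had the highest hepatocyte sum among KO libraries (286.5 CPM). Without it the footprint difference of Cp was -0.31, and without KO library 2 or 3 it was 0.13 or 0.07. The RNA difference of Cp had the sign seen in kidney at a smaller size, and the genotypes overlapped. Endothelial markers summed to 24.85 to 39.86 CPM in WT brain RNA and 15.82 to 24.96 CPM in KO, and to 36.3 to 61.5 and 28.6 to 43.5 CPM in footprints, and red cell markers to 636 to 1841 and 346 to 443 CPM in footprints. Their part in the brain values was not tested.

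Disomes of these genes were rare. Hc had none in any kidney library, Cfi 0 to 3, and the others at most 38 counts per library. In WT kidney all 8 genes that could be tested had less disome than footprint signal, with the libraries of both assays scaled together by TMM (edgeR's quasi-likelihood test, with 25.3% of 64608 transcripts called in that direction). The log2 difference was -2.78 for Serping1 (SE 0.25, adjusted p = 1.5e-07), -2.76 for C3 (SE 0.49, adjusted p = 0.000199), -1.91 for C4b (SE 0.61, adjusted p = 0.0156) and -1.22 for Cp (SE 0.23, adjusted p = 0.000341). C1qa stood at -1.19 (SE 0.34, adjusted p = 0.00737), C1qb at -1.75 (SE 0.37, adjusted p = 0.000924) and C1qc at -1.62 (SE 0.39, adjusted p = 0.00263), while Cfi was called (adjusted p = 0.00524) with all 3 disome libraries at the floor. Without WT disome library 2 the calls of C4b, Cfi and C1qa were lost (adjusted p of 0.104, 0.0551 and 0.0615), and with counts summed per gene those of C1qc (-1.16, adjusted p = 0.0866) and Cfi (adjusted p = 0.0509).

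Between genotypes only Cp and Serping1 had enough disomes to be tested, and edgeR called neither, with none under an unadjusted 0.05 and none called by DESeq2 (0.201% of 34754 transcripts were called by edgeR). Cp had 8.30, 12.9 and 5.44 CPM of disomes in WT and 10.7, 12.4 and 16.6 CPM in KO, a log2 fold change of 0.40 (SE 0.30). Serping1 had 7.606, 8.501 and 2.719 CPM in WT and 6.96, 7.33 and 8.77 CPM in KO, a log2 fold change of 0.09 (SE 0.35). The genotypes overlapped in both genes. Disomes over footprints differed by -0.08 for Cp (SE 0.31) and -0.47 for Serping1 (SE 0.37), and none of 8 members or 67065 transcripts was called (0.0%, with no member and 5.91% of transcripts under an unadjusted 0.05, and 10 transcripts and no member by DESeq2).

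Among 84 further genes of complement and the acute-phase response, none of the 51 tested in kidney RNA was called between genotypes (0.00992% of all transcripts were). Their median log2 fold change was -0.11 against -0.03 over all transcripts. In kidney footprints 13 of 52 (4.75% of all transcripts) were called higher and 1 (3.01%) lower, with a median of 0.28 against -0.01. These lists were chosen with earlier results of the data known, so the counts are descriptions. The recognition proteins and proteases contributed 5 of 12 higher, the regulators 1 of 11, the receptors 1 of 7 and the other acute-phase genes 6 of 19, while none of 3 terminal pathway genes was called. The largest were Itih1 (1.04), which encodes a heavy chain of an inter-alpha-trypsin inhibitor, Itgax (0.98), a subunit of complement receptor 4, and the protease inhibitors Serpina1a (0.83), Serpina1b (0.81) and Serpina1c (0.81), near copies that share reads, whereas Fgb (fibrinogen beta chain) stood at -1.94. Of the 14 genes of upstream cytokine signalling 3 of 13 were called higher in kidney footprints, and of the 8 iron partners of Cp none of 6.

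In brain none of these further genes was called between genotypes in RNA (47 tested, median -0.04), footprints (64 tested, median -0.29) or TE (77 tested, median -0.22), where the medians of all transcripts were -0.02, -0.01 and 0.01. Of all transcripts 0.0134%, 0.0345% and 0.0% were called in RNA, footprints and TE. In footprints the other acute-phase genes had the lowest median, -0.51 over 30 tested, 3 of them above 0. Many of them are hepatocyte genes whose brain footprints, like those of C3, were highest in WT library 2, for example Ahsg (fetuin-A), with 15.2, 27.2 and 8.66 CPM in WT and 21.8, 7.33 and 6.08 CPM in KO, and Hpx (hemopexin), with 10.3, 26.9 and 6.10 CPM in WT and 15.5, 4.31 and 4.02 CPM in KO. Of the acute-phase genes other than the members, 18 of 32 had lower TE in WT kidney than in WT brain (8.09% of all transcripts did), and none higher, while of all 75 further genes tested 29 were lower and 8 higher (11.7% of transcripts).

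Over the 12 RNA-seq libraries, after the mean of each tissue was subtracted, the genes whose levels followed a member most closely among 16132 genes were Hsdl1, Comtd1 and Gsto1 for C1qa (Pearson r of 0.972, 0.944 and 0.935), Cd276, Shq1 and H2-Q6 for C3 (0.975, 0.931 and 0.907) and Heg1, Myo18a and Gm28285 for Cp (0.957, 0.955 and 0.955). C1qb and C1qc followed C1qa at 0.878 and 0.791. The points share library depth and the genotype, and these values are descriptions without a test. The annotation lists 16 transcripts of Cp, 9 of them coding, which share reads. All 9 stood below 0 in KO kidney RNA, from -1.39 to -0.08, and from -0.14 to 0.69 in footprints.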

How the data were processed

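The deposited values are raw read counts per transcript. The authors trimmed reads, aligned them with STAR to the mouse genome (GRCm38) with reads that fit several places kept, and counted them with featureCounts. Versions are not given in the sources used here. Of 142604 transcripts, 141374 matched GENCODE M21. All 30 mouse columns were used, 28 columns of the human table could not be assigned to samples, and the 44 HEK293T samples were not analysed here.

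Counts were fitted with edgeR 4.0.16 (filterByExpr, TMM within each assay, quasi-likelihood F-test, Benjamini-Hochberg adjustment over all transcripts tested, threshold 0.05). For WT kidney disomes against footprints, TMM ran over both assays together. TE and disomes over footprints were the interaction of assay with genotype or tissue, as the RiboDiff test of the study was not run. SE was derived from the F statistic (absolute log2 fold change divided by its square root). Counts of 3 or fewer in every library were a floor. Bounds use CPM scaled within each tissue and cover counting error only. Scripts were tested on simulated counts with 200 changed transcripts. R 4.3.3, DESeq2 1.42.0 and Python 3.11.15 were also used.

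The members and gene lists were chosen with earlier results of these data known. Genes named besides the members are C4a, Rpl41, up to 5 with the largest rise and fall among called genes of a list, the most abundant or absent markers, and the 3 genes most like C1qa, C3 and Cp (mean of at least 1 CPM, 0.5 CPM added before logs). Ahsg and Hpx were named after their values were seen.

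Whether replicate numbers pair libraries across assays is not established, since only same-numbered libraries were compared. Between kidney disome-seq and Ribo-seq their deviations from the group means correlated at 0.270, 0.365 and 0.351 in WT and 0.145, 0.212 and 0.0754 in KO. Between kidney RNA-seq and Ribo-seq the values were 0.217, 0.314 and 0.293 in WT and 0.151, 0.178 and 0.170 in KO. Between brain RNA-seq and Ribo-seq they were 0.261, 0.569 and 0.415 in WT and -0.0388, -0.168 and 0.140 in KO. WT and KO libraries share numbers only. Alternatives were DESeq2, library totals without TMM, a floor of 10 counts in each library, no filter, sums over the transcripts of a gene, 1 transcript per gene, replicate blocks, WT and KO fitted together, and each library left out in turn.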

Additional observations from a re-analysis of the deposited data

How the results depend on the processing

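No member reversed its direction past the threshold under any alternative. Members called in kidney footprints of KO against WT numbered 2, and 0 with library totals without TMM, and 0 to 4 with 1 library left out. In kidney TE none was called, but 2 with DESeq2 and 1 with counts summed per gene, and 0 to 2 with 1 library left out. In kidney RNA 0 to 1 were called with 1 library left out. In WT kidney disomes against footprints 8 of 8 were called, 6 with counts summed per gene (without C1qc and Cfi), and 5 to 8 with 1 library left out. The ranges were 7 to 9 of 9 for WT RNA, 6 to 9 for WT footprints and 3 to 6 for WT TE, and 0 throughout for the brain and disome comparisons of genotypes. Requiring 10 counts in every library left no member to fit in the 3 disome comparisons. The cause of these shifts was not tested.

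WT and KO libraries of the same number did not deviate together (r from -0.51 to 0.54, and in no tissue and assay were all 3 pairs above 0.1). The replicate block changed no count of called members: with it, 2 were called in kidney footprints, 9 in WT RNA, 7 in WT footprints, 4 in WT TE, 8 in WT disomes against footprints and 0 elsewhere. Blocks pairing libraries of the same group and number across assays, chosen after seeing the data, gave 0 in the 3 genotype comparisons of TE and disomes over footprints and 4 in WT TE. Low counts limit Hc in kidney, Cfi in brain RNA and all disome values.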
